A study of Rattus norvegicus with 36 samples.

Results

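The genes described here are 9 members of the machinery by which cells sense bacterial lipopolysaccharide (endotoxin) and other microbial or damage-associated molecules: Lbp, Cd14, Ly96, the Toll-like receptors Tlr2, Tlr3, Tlr4, Tlr6 and Tlr7, and the adaptor Myd88. Probes were taken where the symbol in the deposited annotation matched a member, which gave 8 of 21792 probes, 1 for each member except Ly96, which is not analysed here. The tables came from male Fisher (CDF) 344 rats, whose labels give an age of approximately 3 months. This cannot be their age at sampling, which came 44 weeks after the last exposure. The silica group, 6 rats, breathed crystalline silica (15 mg/m3) on 5 days, 6 h each day. In the air group, 6 rats received air with 0 mg/m3. Lung tissue, cells recovered from bronchoalveolar lavage fluid (BALF cells) and globin-depleted blood RNA were taken 44 weeks after the last exposure. The labels name the same 12 rats for the 3 tissues, and their RNA was read on 36 Illumina rat BeadChips, on which oligonucleotide probes sit on beads.

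In innate immune cells, lipopolysaccharide-binding protein (Lbp) passes lipopolysaccharide to CD14, which hands it to the complex of TLR4 and MD-2 (Ly96). TLR2 senses bacterial lipoproteins, in pairs with TLR6 or TLR1, at the cell surface, whereas TLR3 and TLR7 sense double-stranded and single-stranded RNA in endosomes. All of these receptors but TLR3 signal through MYD88 towards NF-kB, and alveolar macrophages, the main cells of lavage fluid from healthy lungs, carry several of them.

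Between 10974 and 11607 probes per array were detected in the lung, between 9229 and 9773 in BALF cells and between 7244 and 8861 in blood, a probe being detected where its p-value against negative-control beads was under 0.05. Blood arrays were also dimmer, and blood air replicates 1 and 2 and silica replicate 6 had the lowest signal. Each member was read by 20 to 66 beads per array, and its standard error over beads was at most 7.17% of its raw intensity, background included. All 8 alveolar type 2 cell markers were tested in the lung, against 3 in BALF cells and 1 in blood, where 7 of 8 were detected on no array. All 10 measured alveolar macrophage markers were tested in BALF cells, Car4 through its silica arrays alone, but also in the lung. The endothelial genes Cdh5, Vwf and Tek were detected on no BALF array, whereas Tie1 and Cldn5 were detected on all 12. All 5 measured erythroid markers were tested in blood and also in the lung. Markers tested in both of 2 tissues do not tell these tissues apart. Values below are log2 normalized intensities, each tissue normalized on its own, and changes are silica minus air. Levels of different probes were not compared.

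In lung tissue, 4 of the 8 members were higher in silica rats: Cd14, Lbp, Tlr2 and Myd88. None was lower. The test was limma's moderated test over 11399 probes, called at a Benjamini-Hochberg adjusted p under 0.05, and it called 19.1% of all lung probes, 8.96% higher and 10.2% lower. The median change was 0.22 over the 8 members and -0.02 over all tested probes. The largest rise was 1.46-fold, and no member had silica and air values that did not overlap, against 9.19% of all lung probes.

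Cd14 encodes the co-receptor that binds lipopolysaccharide. Its log2 intensity in the lung had a lowest, median and highest value of 10.70, 10.92 and 11.05 in silica rats, against 10.15, 10.27 and 10.71 in air rats. The lowest silica value lay just below the highest air value, and otherwise the groups were apart. The change was 0.55 ± 0.10 (SE, n = 6 rats a group, limma adjusted p = 0.00138).

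Lbp encodes the plasma protein that carries lipopolysaccharide to CD14. Lung values in silica rats were 9.25, 9.53 and 9.66 (lowest, median and highest), against 8.71, 9.11 and 9.48 in air rats. The groups overlapped in part, with an SD of 0.14 in silica rats against 0.30 in air rats. The change was 0.42 ± 0.12 (SE; limma adjusted p = 0.0259). Without silica replicate 5, air replicate 4 or air replicate 5 the adjusted p was 0.0581, 0.0610 and 0.0533.

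Tlr2 encodes the lipoprotein receptor. In the lung it had 9.46, 9.72 and 9.83 in silica rats, against 8.99, 9.31 and 9.57 in air rats, and the groups overlapped over a narrow range. The change was 0.39 ± 0.10 (SE; limma adjusted p = 0.0130). Tlr6, its partner, had 9.33, 9.37 and 9.45 in silica rats, against 8.98, 9.13 and 9.42 in air rats. Its change of 0.23 ± 0.08 (SE) had a limma adjusted p of 0.0533 and was not called, though without air replicate 1 the adjusted p was 0.0118.

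Tlr4, the lipopolysaccharide receptor itself, had 7.06, 7.27 and 7.31 in silica lungs, against 6.74, 7.13 and 7.32 in air lungs. The groups overlapped almost fully, and the change of 0.14 had a 95% confidence interval of -0.06 to 0.34 (limma adjusted p = 0.343). Of the endosomal receptors, Tlr3 changed by 0.01 (interval -0.19 to 0.21) and Tlr7 by 0.22 (interval -0.02 to 0.46), and neither was called.

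Myd88, the shared adaptor, had 8.99, 9.15 and 9.26 in silica lungs, against 8.82, 8.94 and 9.07 in air lungs. The groups overlapped in part, and the change was 0.21 ± 0.06 (SE; limma adjusted p = 0.0341). This call was lost without silica replicate 1, 2, 5 or 6 or without air replicate 1, 2, 3, 4 or 6, with adjusted p of 0.0538 to 0.0763.

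Cell markers moved in the same lungs. Over all lung probes 8.96% were higher and 10.2% lower, and the list counts below are to be read against these shares. Of 12 tested markers of monocytes and recruited macrophages, 9 were higher in silica rats and 0 lower. Their summed linear intensity was 13343 to 21060 in silica lungs, against 10097 to 11984 in air lungs. All 5 tested endothelial markers were lower, with a sum of 16491 to 21424 in silica lungs, against 21811 to 25895 in air lungs. Of the other marker lists, that of alveolar type 2 cells had 4 higher of 8, alveolar macrophages 4 higher and 2 lower of 10, dendritic cells 2 higher of 5, B and plasma cells 2 higher of 6, T and NK cells 2 higher of 9 and erythroid cells 2 lower of 5. The neutrophil list had 1 higher of 10, with S100a9 and Np4 detected on no array. In whole tissue, a change in the number of cells of a type and a change in RNA per cell cannot be told apart, and the part of these markers in the member changes was not tested.

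**Figure D1:**
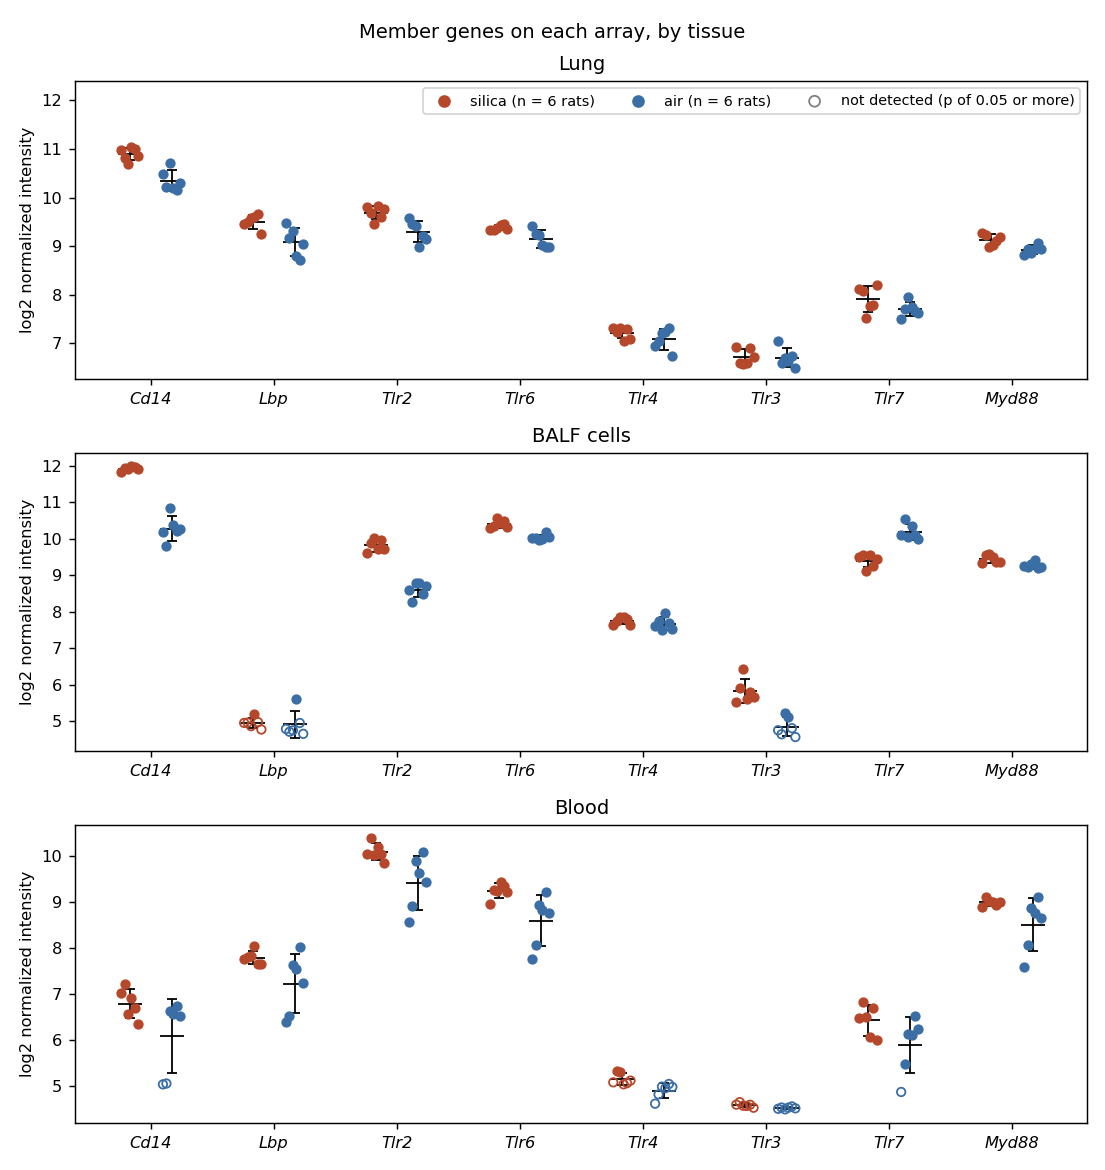
Log2 normalized intensity of the 8 measured members on each of 36 arrays, by tissue, with silica rats left of air rats, black bars for the group mean and SD, and open points for arrays where the probe was not detected. In BALF cells the groups of Cd14, Tlr2, Tlr6, Tlr3 and Tlr7 do not overlap, in the lung all groups overlap, and in blood 2 air rats lie below the others for most members.

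In BALF cells, 5 of 7 tested members were higher in silica rats (Cd14, Tlr2, Tlr6, Tlr3 and Myd88), Tlr7 was lower and Tlr4 was not called. The same test called 35% of 9564 BALF cell probes, 15.6% higher and 19.4% lower. The silica and air values did not overlap for 4 members that were higher and 1 that was lower, against 9.04% and 9.67% of all BALF cell probes. The median change was 0.37 over the tested members and -0.03 over all tested probes. Tlr3 is included in these counts and in the median. It was detected on 6 silica arrays and 2 air arrays and passed the filter through its silica arrays. Its part in them is therefore no support.

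Cd14 rose most. It had 11.83, 11.93 and 11.99 (lowest, median and highest) in BALF cells of silica rats, against 9.80, 10.24 and 10.84 in those of air rats. Every silica rat was above every air rat, and the silica rats lay within a narrow band, with an SD of 0.05 against 0.34. The change was 1.64 ± 0.12 (SE), or 3.12-fold, with a limma adjusted p of 4.84e-08. The promoter is shown because Cd14 was higher in both lung and BALF cells. It is given from 250 bases before to 50 after the RefSeq start, on the minus strand of chr18:28611109-28611408 (GRCr8), 5′ to 3′, with motif matches in capitals.
Cd14: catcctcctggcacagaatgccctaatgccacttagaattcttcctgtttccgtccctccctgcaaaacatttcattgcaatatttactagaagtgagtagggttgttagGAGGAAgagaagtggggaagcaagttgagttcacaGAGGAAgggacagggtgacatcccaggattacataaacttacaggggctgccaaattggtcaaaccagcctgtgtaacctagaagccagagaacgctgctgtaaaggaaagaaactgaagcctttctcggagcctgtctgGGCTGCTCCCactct

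Tlr2 had 9.60, 9.81 and 10.03 in BALF cells of silica rats, against 8.26, 8.66 and 8.80 in those of air rats. The groups were fully apart, and the change was 1.21 ± 0.10 (SE), or 2.32-fold (limma adjusted p = 1.49e-07). The promoter of Tlr2, the other receptor that was higher in both tissues, lies on the minus strand of chr2:171504508-171504807 (GRCr8).
Tlr2: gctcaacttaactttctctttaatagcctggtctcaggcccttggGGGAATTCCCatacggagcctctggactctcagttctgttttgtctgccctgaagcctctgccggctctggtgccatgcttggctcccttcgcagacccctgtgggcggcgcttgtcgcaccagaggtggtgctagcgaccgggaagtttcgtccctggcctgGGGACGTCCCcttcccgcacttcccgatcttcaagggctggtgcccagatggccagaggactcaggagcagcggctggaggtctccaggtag

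The motifs searched, on both strands, were an NF-kB motif (GGGA, any 4 bases, CC), the PU box (GAGGAA) and an interferon regulatory factor motif (GAAA, any 2 bases, GAAA). They are held by 19.3%, 27.6% and 3.92% of the 33469 RefSeq promoters of this length. The Tlr2 window holds 2 places with the NF-kB letters, each of which matches on both strands. The Cd14 window holds 1 such place, after the start, and 2 PU boxes, and in no printed window do matches of different motifs overlap. Promoters were found for 7 of the 9 members, and 2 of the 7 hold the NF-kB letters, 5 the PU box and 1, Myd88, the interferon regulatory factor letters. Such matches describe the sequence and are no evidence of binding.

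Tlr6 had 10.29, 10.39 and 10.58 in BALF cells of silica rats, against 9.98, 10.02 and 10.19 in those of air rats. The groups did not overlap, and the change was 0.37 ± 0.06 (SE; limma adjusted p = 0.000216). Tlr4 had 7.64, 7.78 and 7.87 in silica rats, against 7.50, 7.66 and 7.96 in air rats. Here all silica values lay within the air range, and the change of 0.09 had a 95% interval of -0.08 to 0.25 (limma adjusted p = 0.430).

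Of the endosomal receptors, Tlr7 was lower and Tlr3 higher in BALF cells of silica rats. Tlr3 lay near background on air arrays, and the size of its change is not settled. Tlr7, which senses single-stranded RNA, had 9.11, 9.47 and 9.57 in BALF cells of silica rats, against 9.997, 10.11 and 10.55 in those of air rats. Every silica rat was below every air rat, and the change was -0.79 ± 0.10 (SE), or 0.58 of the air level (limma adjusted p = 2.36e-05). The Tlr7 promoter, shown as that of the member that fell, lies on the plus strand of chrX:30644176-30644475 (GRCr8) and holds 1 PU box.
Tlr7: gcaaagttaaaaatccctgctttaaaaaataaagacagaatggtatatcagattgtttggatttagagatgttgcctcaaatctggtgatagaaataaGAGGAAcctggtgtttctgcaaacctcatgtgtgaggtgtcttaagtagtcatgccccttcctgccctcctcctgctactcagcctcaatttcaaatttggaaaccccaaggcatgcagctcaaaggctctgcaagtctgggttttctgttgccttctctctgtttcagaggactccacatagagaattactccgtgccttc

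Tlr3, which senses double-stranded RNA, was dim. It was detected on 6 of 6 silica arrays and 2 of 6 air arrays of BALF cells, so that it passed the detection filter through its silica arrays, with 5.54, 5.74 and 6.44 in silica rats, against 4.57, 4.79 and 5.22 in air rats. The groups did not overlap, and the change was 0.98 ± 0.15 (SE; limma adjusted p = 8.43e-05). Its size depended on how the background was estimated: with the negative-control level inferred from all probes, the change was 0.08 (limma adjusted p = 0.00321), and with the authors' processed values it was 0.19. The Tlr3 promoter is shown beside that of Tlr7, the other endosomal receptor, and lies on the plus strand of chr16:53554666-53554965 (GRCr8), with 1 PU box.
Tlr3: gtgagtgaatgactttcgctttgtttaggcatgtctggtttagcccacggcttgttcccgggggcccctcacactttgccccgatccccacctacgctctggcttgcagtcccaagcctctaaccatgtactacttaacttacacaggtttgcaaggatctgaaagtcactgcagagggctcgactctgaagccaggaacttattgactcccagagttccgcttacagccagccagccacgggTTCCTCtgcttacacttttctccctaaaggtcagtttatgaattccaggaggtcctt

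Myd88 had 9.35, 9.44 and 9.60 in BALF cells of silica rats, against 9.19, 9.24 and 9.43 in those of air rats. The groups overlapped, and the change was 0.19 ± 0.06 (SE; limma adjusted p = 0.0308). The call was lost without silica replicate 2, 3 or 4 or without air replicate 1, 2, 5 or 6, with adjusted p of 0.0550 to 0.0739. Lbp was detected on 1 of 6 silica and 1 of 6 air arrays of BALF cells and was not tested there.

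Other cell markers moved in the same BALF cells. Over all BALF cell probes 15.6% were higher and 19.4% lower, and the list counts below are to be read against these shares. Of 10 tested markers of monocytes and recruited macrophages, 6 were higher and 0 lower, among them Itgam with a change of 2.67, while the abundant Cd68 changed by 0.10 and was not called. The summed linear intensity of that list was 34115 to 39657 in silica rats, against 33596 to 37629 in air rats, and Adgre1 was detected on no array. Of 9 tested neutrophil markers, 5 were higher and 2 lower, among them S100a8 with a change of 3.18 and Fcgr3a with -0.77. That list summed to 7706 to 12705 in silica rats, against 14755 to 16496 in air rats, with S100a9 and Np4 detected on no array. Of 10 tested alveolar macrophage markers, 3 were higher and 3 lower, and the list summed to 36051 to 39191 in silica rats, against 34983 to 39603 in air rats. The T and NK cell list had 4 higher and 1 lower of 8, with a sum of 1183 to 2669 in silica rats, against 868 to 1178 in air rats. Some markers called higher passed the filter through the silica arrays: C1qc, Car4 and Klrb1a, for example, were detected on no air array, and Cxcr2 and Mmp8 on 1. Without genes detected on fewer than 3 arrays of either group, a limit chosen after seeing the data, 5 of 9 monocyte, 2 of 6 neutrophil, 2 of 9 alveolar macrophage and 3 of 7 T and NK cell markers were higher. Under that limit 0 monocyte, 2 neutrophil, 3 alveolar macrophage and 1 of the T and NK cell markers were lower. The part of these markers in the member changes was not tested.

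**Figure D2:**
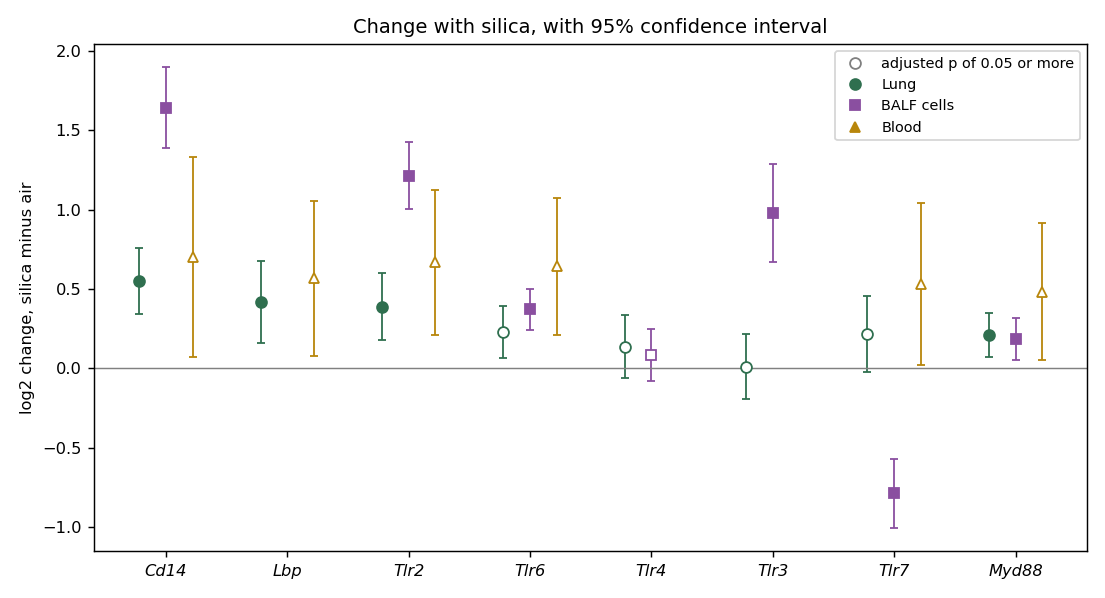
Log2 change, silica minus air, of each tested member in lung, BALF cells and blood (left to right for each gene), with 95% confidence intervals from limma; filled points had an adjusted p under 0.05. The largest change was that of Cd14 in BALF cells (1.64), only Tlr7 in BALF cells was negative, and no blood point was called.

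In blood, 0 of 6 tested members were called, and limma called 0% of the 8044 blood probes, with a smallest adjusted p of 0.102. At an unadjusted p under 0.05 all 6 tested members and 1087 of all probes would have passed. The members' changes were all positive, with a median of 0.61 against -0.02 over all tested probes.

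Tlr2 had 9.84, 10.04 and 10.38 in blood of silica rats, against 8.55, 9.53 and 10.07 in blood of air rats. Air replicates 1 and 2 held the 2 lowest values, and the remaining air rats overlapped with the silica rats. The change was 0.67 ± 0.21 (SE; limma adjusted p = 0.198).

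Cd14 had 6.34, 6.80 and 7.21 in blood of silica rats, against 5.03, 6.53 and 6.74 in blood of air rats, and it was detected on 6 silica and 4 air arrays. The 2 air arrays without detection were replicates 1 and 2. Its change was 0.70 ± 0.30 (SE; limma adjusted p = 0.310), that of Tlr6 was 0.64, of Lbp 0.57, of Tlr7 0.53 and of Myd88 0.48, with adjusted p of 0.190 to 0.344. Without the 3 arrays of lowest signal, which are air replicates 1 and 2 and silica replicate 6, the changes were 0.37 for Tlr2, 0.31 for Tlr6, 0.27 for Cd14, 0.26 for Tlr7, 0.21 for Lbp and 0.14 for Myd88, and none was called. The dim members also depended on the background estimate: Cd14 changed by 0.0922, Tlr7 by 0.0615 and Lbp by 0.16 with the negative-control level inferred from all probes, and by 0.25, 0.18 and 0.28 with the authors' processed values, without a call. Tlr4 was detected on 2 silica arrays and 0 air arrays and Tlr3 on none, so neither was tested in blood.

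In blood no marker list had a called gene. The summed linear intensity of the neutrophil list was 13033 to 18502 in silica rats, against 8230 to 16245 in air rats, and that of the monocyte list 4450 to 6374, against 1605 to 4491. The part of these lists in the blood values was not tested.

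Whether silica acted differently in the 3 tissues was tested on each rat's own difference of log2 values between a pair of tissues, over the probes tested in both. Between BALF cells and lung, 4 of 7 members differed, against 23.2% of 9131 probes. Tlr3, counted among the 4, passed the filter in BALF cells through its silica arrays. The silica effect in BALF cells exceeded that in the lung by 1.09 for Cd14 (95% interval 0.86 to 1.33, limma adjusted p = 2.61e-06), by 0.83 for Tlr2 (0.47 to 1.18, adjusted p = 0.00172) and by 0.97 for Tlr3 (0.58 to 1.36, adjusted p = 0.00105). For Tlr3 the difference was 0.08 with the negative-control level inferred from all probes (adjusted p = 0.0540). Tlr7 differed in the other direction, by -1.004 (-1.26 to -0.75, adjusted p = 1.64e-05), with a change of -0.79 in BALF cells against 0.22 in the lung.

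For Tlr6, Tlr4 and Myd88 the difference between BALF cells and lung was not called, and their intervals ran from -0.07 to 0.36, from -0.27 to 0.17 and from -0.23 to 0.19. Between BALF cells and blood, 2 of 5 members differed, against 17.2% of 7180 probes: Cd14 by 0.94 (0.42 to 1.46, adjusted p = 0.0138) and Tlr7 by -1.32 (-1.90 to -0.75, adjusted p = 0.00292). Tlr2 differed by 0.55 (adjusted p = 0.0744), and by 0.77 without the 3 rats of lowest blood signal (adjusted p = 0.00796) and by 0.72 without air replicate 1 (adjusted p = 0.00713). The call for Cd14 was lost when the 3 tissues were normalized together (0.49, adjusted p = 0.539), under a median shift (0.97, adjusted p = 0.0682) and with no filter (0.94, adjusted p = 0.0508). Between lung and blood, 0 of 6 members differed, against 4.55% of 7555 probes, and the intervals spanned -0.95 to 0.50.

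**Figure D3:**
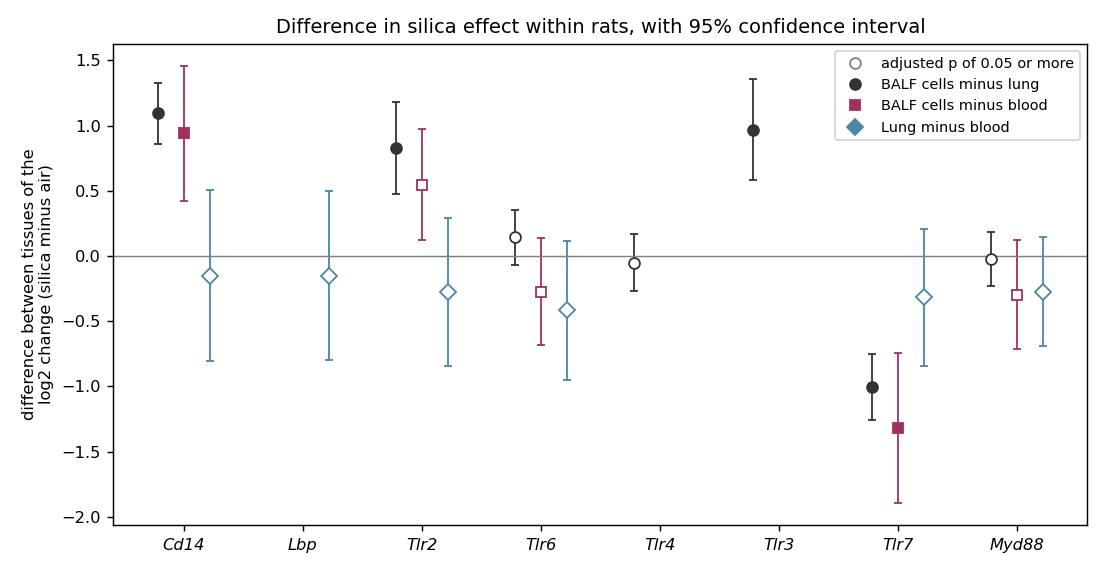
Difference between pairs of tissues in the log2 change with silica, computed within rats, for each member tested in both tissues, with 95% confidence intervals; filled symbols had an adjusted p under 0.05. BALF cells lie above the lung for Cd14, Tlr2 and Tlr3 and below it for Tlr7 (-1.004), and the intervals of lung minus blood all include 0.

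Levels of a single member were compared between tissues in the 6 air rats, after the 36 arrays had been normalized together. Between BALF cells and lung, 7 of 8 members differed, against 86.9% of 11832 probes. Tlr7 was higher in BALF cells, with 9.93 ± 0.20 in BALF cells and 6.99 ± 0.15 in the lung (SD, n = 6), a difference of 2.95 that was positive in 6 of 6 rats and between 2.14 and 2.95 over the settings tried. Tlr6, Tlr4 and Myd88 were also higher in BALF cells, by 1.28 (1.005 to 1.28 over settings), 1.29 (0.14 to 1.29) and 0.81 (0.35 to 0.81). Lbp lay on the other side, with 5.02 ± 0.46 in BALF cells, where it was detected in 1 of 6 rats, and 8.44 ± 0.32 in the lung. Tlr3 was lower in BALF cells, where it was detected in 2 of 6 rats. The sizes of these differences rest on values near background, and ran from -3.955 to -1.39 for Lbp and from -1.65 to -0.24 for Tlr3 over settings. For Cd14 (10.02 in BALF cells, 9.81 in the lung) and Tlr2 (8.49 and 8.67) the call depended on the setting. Tlr2 was called lower in BALF cells with the negative-control level inferred from all probes (-0.63, adjusted p = 0.00234), under a median shift (-0.38, adjusted p = 0.0226) and under a median shift of the probes detected on all arrays (-0.54, adjusted p = 0.00171). Under the same 3 settings Cd14 was not called, with adjusted p of 0.607, 0.0564 and 0.370. The call for Cd14 was also lost without air replicate 3, 4, 5 or 6 (adjusted p of 0.0606 to 0.104), and Tlr2 was also called without air replicate 4 (-0.28, adjusted p = 0.0267).

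Against blood the order depended on the scaling for several members. BALF cells were called different from blood for 7 of 8 members (83.3% of 10428 probes) and lung from blood for 6 of 8 (83.5% of 11888 probes). Cd14 was higher in BALF cells (2.83) and in the lung (2.62) than in blood, in 6 of 6 air rats and under the settings tried. Tlr4 was detected on no blood array of an air rat and, with quantile scaling, was at least 3.47-fold higher in BALF cells and at least 1.42-fold higher in the lung. The bounds were computed for that scaling alone. Over settings the fitted log2 difference of Tlr4 ran from 0.65 to 2.73 for BALF cells and from 0.17 to 1.83 for the lung, where the call was lost under a median shift of the probes detected on all arrays (adjusted p = 0.168). Tlr2 was lower in BALF cells than in blood, with a difference of -2.29 (-2.53 to -0.68 over settings), and Tlr7 higher by 2.91. The order against blood of Lbp and Tlr7 in the lung, of Tlr6 and Myd88 in both other tissues, and of Tlr3 in BALF cells turned with another scaling. It is not settled by these arrays. The call for Lbp between BALF cells and blood was lost with the negative-control level inferred from all probes (-0.15, limma adjusted p = 0.0620). That for Tlr3 between lung and blood was lost under a median shift of the probes detected on all arrays (0.17, limma adjusted p = 0.110). The call for Tlr2 between lung and blood was lost with the negative-control level inferred from all probes (-0.0482, adjusted p = 0.876) and under a median shift (-0.33, adjusted p = 0.311).

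Over the 36 arrays, the genes whose centred profile was closest to a member were found by root-mean-square difference of log2 values. This is a description over arrays that share rats and scaling and that differ mostly by tissue. Tlr2 was closest to Ptafr, the platelet-activating factor receptor (0.23), and to Ptpn1 (0.30). Ptafr changed by 0.58 in the lung and 1.72 in BALF cells with silica. Tlr7 was closest to Clec7a, the beta-glucan receptor dectin-1 (0.32), and to Tifa (0.35), which fell by 0.42 and 0.41 in BALF cells. Cd14 was closest to Anpep (0.58) and P2ry2 (0.64), a looser match. With silica, Anpep changed by 0.43 in the lung and 0.07 in BALF cells, and P2ry2 by 0.53 and 0.50. Lbp was closest to Tf, which encodes transferrin (0.40), Tlr6 to P2ry13 (0.20), Tlr4 to Sgk1 (0.23), Tlr3 to Tpi1 (0.28) and Myd88 to Bst1 (0.19). In the lung these genes changed by 0.42 (Tf), 0.32 (P2ry13), 0.13 (Sgk1), 0.12 (Tpi1) and -0.09 (Bst1). Their changes in BALF cells were 0.04, 0.27, 0.18, 0.67 and 0.47 in the same order. A close profile over the arrays therefore did not always go with a like change with silica.

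The remaining genes of the pathway were followed in 6 lists of 70 genes in all, of which 58 had a probe. Of 43 tested in BALF cells, 16 were higher and 4 lower in silica rats, against 15.6% and 19.4% of all BALF cell probes. Without 3 genes detected on fewer than 3 arrays of a group (Sigirr, Acod1 and Ptgs2), 13 of 40 were higher and 4 lower. Of 43 tested in the lung, 9 were higher and 0 lower, against 8.96% and 10.2% of all lung probes. The counts of single lists below are small and are to be read against the same shares. In blood 0 of 38 were called.

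Of the 8 other Toll-like receptors listed, 4 were matched to a probe, and Tlr1, Tlr8, Tlr9 and Tlr12 were not measured. Among the 4, Tlr13 alone passed the detection filter. It was lower in BALF cells of silica rats (10.97 ± 0.09 against 11.40 ± 0.14, SD), a change of -0.43, and higher in their lungs by 0.30. Both changes were called, and the difference between the tissues was not tested.

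Among accessory proteins, 4 of 6 tested genes were higher in BALF cells (15.6% of all probes), and the list's median was 0.17. Unc93b1, the chaperone that brings nucleic-acid-sensing receptors to endosomes, rose by 0.52, and Pltp and Hsp90b1, a chaperone of Toll-like receptors, by 0.17 each. In the lung 1 of 7 was higher, Trem1, an amplifying receptor of myeloid cells, by 0.74.

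Among adaptors and kinases, 1 of 12 tested genes was higher in BALF cells, Irak2 by 0.43, and 2 were lower, Ikbkb by -0.32 and Ticam2, an adaptor of TLR4, by -0.27. In the lung 1 of 12 was higher, Ikbke by 0.26. The medians of -0.09 and 0.11 lay near those of all tested probes, -0.03 and -0.02.

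Of 8 transcription factors, Irf7, the interferon regulator downstream of TLR7, rose by 1.71 ± 0.12 in BALF cells (SE; limma adjusted p = 3.52e-08) and the NF-kB subunit Rel by 0.52. In the lung Rel rose by 0.49 and Nfkb2 by 0.26, while Irf7 changed by 0.06 and was not called.

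Of 7 tested negative regulators, 4 were higher in BALF cells and 0 lower (15.6% and 19.4% of all probes), with a median of 0.45. One of the 4, Sigirr, passed the filter through its silica arrays, and without it 3 of 6 were higher. Nfkbia, the NF-kB inhibitor, had 12.36 ± 0.09 in silica rats and 11.56 ± 0.12 in air rats (SD), a change of 0.80. Sigirr was detected on no air array and was at least 1.55-fold higher, and Socs1 rose by 0.54. In the lung 1 of 7 was higher, Tollip by 0.31.

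Of 9 tested target genes, 5 were higher and 1 lower in BALF cells (15.6% and 19.4% of all probes). Without Acod1 and Ptgs2, which passed the filter through their silica arrays, 3 of 7 were higher and 1 lower. Acod1, which makes itaconate in activated macrophages, was detected on 6 silica arrays and 0 air arrays and was at least 4.57-fold higher. Ptgs2, the inducible prostaglandin synthase, was detected on 6 silica arrays and 1 air array, and its fitted change of 2.33 rests on air values near background. Il1b rose by 1.02. Cxcl1, a neutrophil chemokine, had 8.34 ± 0.21 in silica rats and 9.58 ± 0.17 in air rats (SD), a change of -1.24. In the lung 3 of 8 were higher (8.96% of all probes), Lcn2 by 1.55, Ccl3 by 0.96 and Ccl4 by 0.41. Il6, Ifnb1 and Il10 were detected on no array of either tissue. The marker changes given above for lung and BALF cells stand beside these counts too, and their part was not tested.

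**Figure D4:**
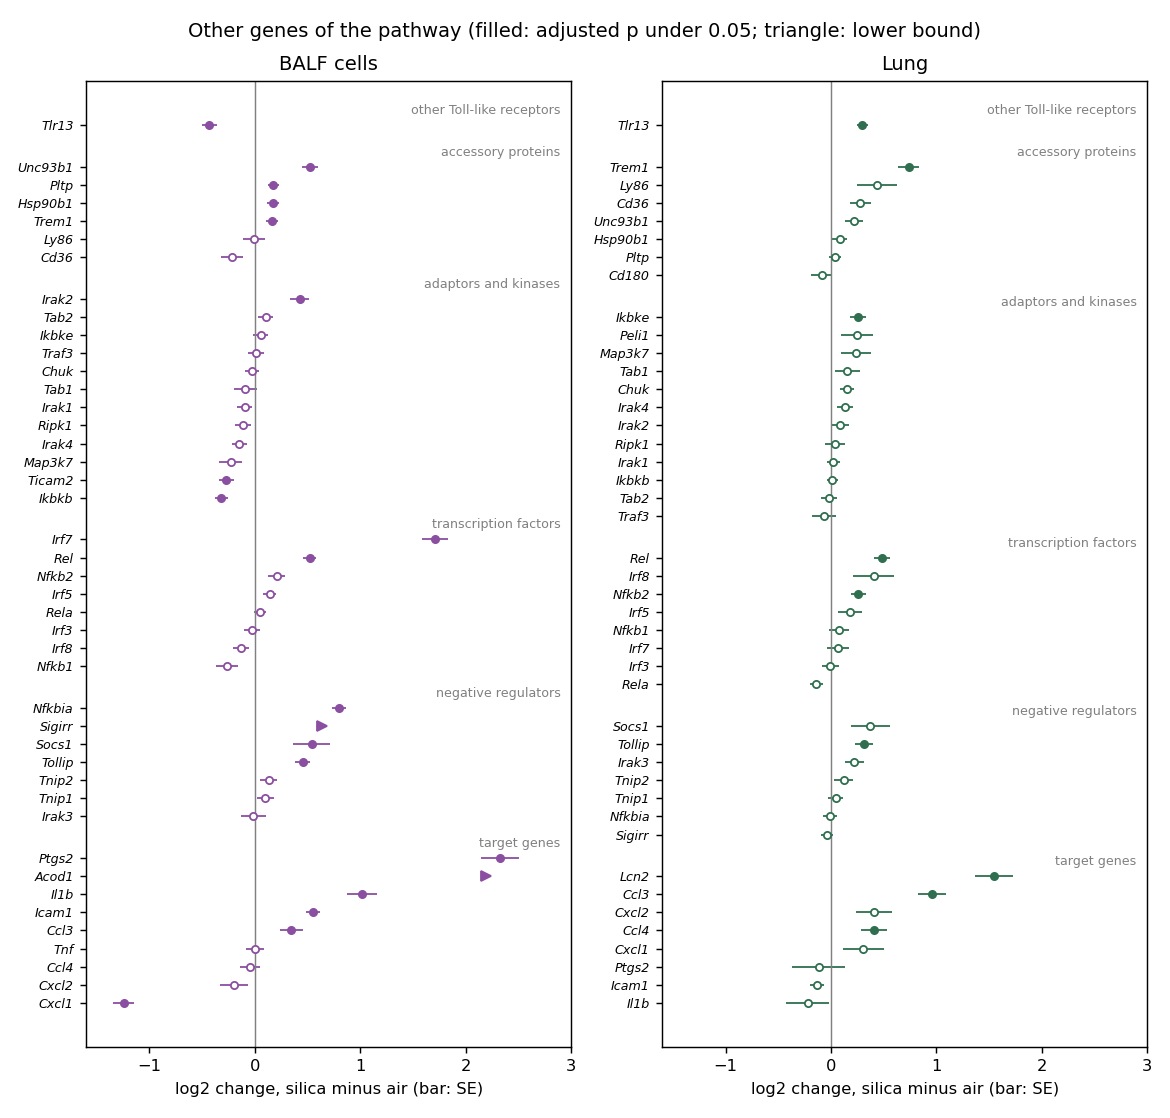
Log2 change, silica minus air, with its SE, of the other tested pathway genes in BALF cells (left) and lung (right), grouped by list and sorted by size; filled points had an adjusted p under 0.05, and triangles are lower bounds of genes detected on no air array. In BALF cells Ptgs2, Acod1 and Irf7 lie to the right, the first a value and the second a bound against air arrays near background, and Cxcl1 lies farthest to the left, and in the lung Lcn2 and Ccl3 lie farthest to the right.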

How the data were processed

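Per the file headers, the deposited tables give every probe's mean bead intensity per array, not normalized between arrays, its detection p-value, a standard error over beads and the number of beads, a count that served as a signal of reading depth. The authors' processed log2 values form another deposited table, whose handling of dim probes is unknown. BeadStudio, lumi and limma are named, without versions, in the submitters' processing notes. Group, replicate and rat came from the labels. One silica blood array carries a number in its description that differs from its title, and was matched through the description.

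Intensities were processed as in the neqc method of limma 3.58.1 (R 4.3.3): normexp background correction, in which the detection p-values give the level of the negative controls, then an added offset of 16, quantile normalization within the tissue and log2. In 606 lung, 621 BALF and 655 blood rows the detection p lay off the regular steps of the other rows and did not follow the intensity. These rows, none of them a member, were set aside for that inference only. Without them the p-values followed the intensities without exception, and the negative controls had an inferred SD of 10.4 to 15.7 intensity units, against 157 to 355 with all rows. This step departs from limma's default over all rows. It was chosen after the data, and the members' results under the default, had been seen. The calls for silica against air were the same for every member under both, with 2020 against 2178 probes called in the lung and 3187 against 3345 in BALF cells under the default and the step used, but dim genes changed by less under the default, most of all Tlr3 in BALF cells. The default is kept as an added alternative throughout.

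Probes detected (p under 0.05) on 6 or more of a tissue's 12 arrays were tested with lmFit and eBayes, two-sided, with Benjamini-Hochberg adjustment over all of them. The fitting functions were tested on simulated data. Differences between tissues used each rat's difference of log2 values. A fold against a group without detection is a bound, taken from the lowest value among detected probes on each array. The members, the lists and the rule for named genes (up to 3 called genes in each direction per list, 1 probe per gene, and the 2 closest profiles) were chosen with earlier results of these data known. Replicates are separate rats. Deviations of same-numbered silica and air arrays correlated between -0.30 and 0.33 over the 3 tissues. In BALF cells 3 of 6 silica arrays correlated best with the air array of their own number, against 1 in the lung and 1 in blood. Whether same-numbered arrays shared a batch is not known, and the main test used no such block. Symbols were updated through a RefSeq table (9918 current symbols, 4817 synonyms, 6940 kept as filed, 117 without a symbol), and promoters are RefSeq's on GRCr8. Slides and scan dates are not known here.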

Additional observations from a re-analysis of the deposited data

Results flagged for a closer look

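The silica effect differed between tissues, by the test of the difference itself, for Cd14 (1.09), Tlr2 (0.83), Tlr3 (0.97) and Tlr7 (-1.004) between BALF cells and lung, and for Cd14 (0.94) and Tlr7 (-1.32) between BALF cells and blood, each given as the effect in BALF cells minus that in the other tissue on the log2 scale. Tlr3 passed the filter in BALF cells through its silica arrays, so its difference is no support. The size of that difference is not settled either, with 0.19 from the authors' processed values. With the negative-control level inferred from all probes the call for Tlr3 was lost (0.08, adjusted p = 0.0540). The call for Cd14 against blood was lost with the 3 tissues normalized together (0.49, adjusted p = 0.539). It was also lost under a median shift (0.97, adjusted p = 0.0682) and with no filter (0.94, adjusted p = 0.0508). Of 39 groups of 6 arrays examined for a single distant value, 1 had one: Tlr6 in BALF cells of air replicate 5, at 10.19 against 10.06 for the next air rat. Chance gives such a value in about 1 of 20 groups.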

How the results depend on the processing

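Of the members' changes under other settings that kept all arrays or left out the 3 dimmest blood arrays, 244 kept their call and direction, 5 lost the call and 6 gained one, and none turned direction. A minimum fold of 1.5 left 0 members and 356 probes in the lung and 683 probes in BALF cells. In BALF cells Tlr6 (1.29-fold) and Myd88 (1.14-fold) lay below that minimum. With the replicate number as a block, 2 lung members were called, since Lbp (adjusted p = 0.0507) and Myd88 (0.0789) were lost, while 6 members were called in BALF cells. Whether same-numbered arrays shared a batch is not known, so the block result stands beside the main one. Leaving out 1 array gave 2 to 4 called members for the lung, 5 to 6 for BALF cells and 0 for blood, and 1769 to 2234 called probes for the lung and 2982 to 3382 for BALF cells. Tlr6 in the lung was called with 6 of the settings, among them the authors' processed values (adjusted p = 0.0358), and Myd88 was lost under a median shift in the lung (0.121) and in BALF cells (0.176). Members differing in silica effect numbered 1 between BALF cells and blood, both under a median shift and with the 3 tissues normalized together. With the negative-control level inferred from all rows, an alternative chosen after seeing the data, 1 member differed between lung and blood, Cd14, whose difference turned to 0.52 (adjusted p = 0.0170). Several levels in air rats turned. With all rows used, BALF cells minus lung was -0.0575 for Cd14, lung minus blood 1.25 for Lbp, 0.59 for Tlr6, 0.59 for Tlr7 and 0.44 for Myd88, and BALF cells minus blood 1.60 for Tlr6 and 0.79 for Myd88. Under a median shift, lung minus blood was 1.60 for Lbp, 0.33 for Tlr6, 1.45 for Tlr7 and 0.20 for Myd88, and BALF cells minus blood 1.53 for Tlr6 and 0.86 for Myd88. With arrays aligned on the median of the probes that every array detected, BALF cells minus blood was -1.49 for Tlr3. The causes of these turns were not tested. Signal near background limits Tlr3 in BALF cells and Tlr4, Tlr3, Cd14 and Tlr7 in blood.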
